A study of Homo sapiens with 2 samples.

Results

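The region described here is a gene-dense block on the long arm of human chromosome 11, band 11q13, that runs from 63990000 to 67640000 in genome build hg38. Its members are the 374 peaks of a TCF4 peak list whose summit, the position of highest signal, lies between those limits, of 26642 peaks in the whole list. The limits were drawn where peaks with a very high local background crowd, so the number, background and signal of these peaks are descriptions and none of them was tested. The list was made from 1 library of CAL-27 cells, an established line from a squamous carcinoma of the human tongue, grown as spheres, in which DNA bound to TCF4 was recovered with an antibody. A second CAL-27 sphere library, made with an IgG antibody as the control, is not analysed here. Both libraries are of the same line with no other treatment named, and with 1 library per antibody there is no replicate error: intervals below are 95% intervals for counting error alone. The labels name neither the assay nor the fragmentation.

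The name TCF4 is used for an E protein, a basic helix-loop-helix factor that binds E-boxes of the form CANNTG, and also for the product of TCF7L2, an HMG-box factor that carries Wnt signals to DNA motifs holding ATCAAAG. The labels do not say which of these the antibody recognises. Band 11q13 is known in cancers of the head and neck for the amplified segment around CCND1, the cyclin that drives entry into S phase. The block lies on the centromere side of that segment and holds the long noncoding RNA genes NEAT1 and MALAT1, the AP-1 gene FOSL1, the NF-kB gene RELA and many housekeeping genes.

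The stretches of DNA just upstream of 6 genes carry the peaks to which the results return most often, and their sequences are given first. Each is the 250 bases before the most upstream start that RefSeq lists for the gene on GRCh38.p14, read 5′ to 3′ on the gene's strand. Capitals mark any match, on either strand, to the E-box CANNTG, to ATCAAAG, to the AP-1 motif TGANTCA, to the ETS motif CCGGAA, to the CCAAT box (ATTGG on the other strand) or to TGCGCA, the core of the motif of NRF1; matches that overlap run together. PC encodes pyruvate carboxylase, which feeds carbon into the citric acid cycle (chr11:66958384-66958633, minus strand); SF1 encodes the factor that recognises the branch point of introns (chr11:64778543-64778792, minus strand). POLA2 encodes a subunit of the polymerase that primes DNA synthesis (chr11:65261712-65261961, plus strand); KDM2A encodes a histone H3 lysine demethylase that binds unmethylated CpG DNA (chr11:67119013-67119262, plus strand). SF3B2 encodes a subunit of the U2 splicing complex (chr11:66052114-66052363, plus strand); MALAT1 is an abundant nuclear RNA (chr11:65497488-65497737, plus strand).
PC: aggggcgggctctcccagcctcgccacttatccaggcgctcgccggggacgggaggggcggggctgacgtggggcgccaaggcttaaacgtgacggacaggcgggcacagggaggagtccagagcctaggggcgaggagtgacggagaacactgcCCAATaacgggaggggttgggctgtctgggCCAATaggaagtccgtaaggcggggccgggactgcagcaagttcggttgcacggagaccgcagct
SF1: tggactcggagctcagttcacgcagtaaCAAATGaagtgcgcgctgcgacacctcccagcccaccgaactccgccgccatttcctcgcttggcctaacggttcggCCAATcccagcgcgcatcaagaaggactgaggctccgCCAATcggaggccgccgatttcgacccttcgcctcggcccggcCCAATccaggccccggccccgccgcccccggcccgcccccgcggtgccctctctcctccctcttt
POLA2: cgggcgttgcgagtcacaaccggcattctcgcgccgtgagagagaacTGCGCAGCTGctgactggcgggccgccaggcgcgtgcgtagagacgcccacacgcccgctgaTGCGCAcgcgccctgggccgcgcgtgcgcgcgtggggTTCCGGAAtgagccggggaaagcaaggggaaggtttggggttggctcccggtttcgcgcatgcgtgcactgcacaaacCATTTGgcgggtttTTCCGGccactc
KDM2A: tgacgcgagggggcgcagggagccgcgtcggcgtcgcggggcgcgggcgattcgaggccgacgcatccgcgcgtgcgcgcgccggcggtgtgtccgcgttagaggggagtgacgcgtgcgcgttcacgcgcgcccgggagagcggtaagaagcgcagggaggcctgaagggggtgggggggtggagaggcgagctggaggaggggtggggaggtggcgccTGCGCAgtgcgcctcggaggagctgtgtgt
SF3B2: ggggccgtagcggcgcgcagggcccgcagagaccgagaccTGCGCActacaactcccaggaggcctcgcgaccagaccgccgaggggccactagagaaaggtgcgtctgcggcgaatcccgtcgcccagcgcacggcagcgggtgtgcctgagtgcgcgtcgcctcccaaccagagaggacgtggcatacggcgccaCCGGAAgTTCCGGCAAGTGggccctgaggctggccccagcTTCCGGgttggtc
MALAT1: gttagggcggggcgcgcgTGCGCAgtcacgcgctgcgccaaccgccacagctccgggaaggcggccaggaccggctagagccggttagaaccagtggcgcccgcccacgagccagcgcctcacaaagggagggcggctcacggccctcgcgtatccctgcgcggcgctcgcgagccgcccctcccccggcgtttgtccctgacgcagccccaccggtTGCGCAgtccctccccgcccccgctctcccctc

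The peak summit fell at base 124 of the PC run, base 52 of SF1, base 180 of POLA2, base 220 of KDM2A, base 55 of SF3B2 and base 27 of MALAT1, counted from 1 at the 5′ end. Every one of these summits therefore lay upstream of the listed start. The PC run held 2 CCAAT boxes and no E-box, and SF1 held 3 CCAAT boxes and 1 E-box. POLA2 held 3 matches to CCGGAA, 2 E-boxes and 2 matches to TGCGCA, and SF3B2 held 3 matches to CCGGAA, 1 E-box and 1 TGCGCA. KDM2A and MALAT1 held no E-box, with 1 and 2 matches to TGCGCA. None of the 6 runs held ATCAAAG or the AP-1 motif. A match is a description of these letters and not a binding site.

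The block held 1.4% of all peaks of the list and 21.9% of the 1708 peaks of chromosome 11. Its 374 summits stood at 102 per Mb (exact Poisson interval 92.3 to 113). The block is also rich in genes, with 149 protein-coding genes, or 40.8 per Mb. Counted per protein-coding gene, it held 2.51 summits, against 1.16 on the rest of chromosome 11, 1.13 on chromosome 19, another gene-dense chromosome, and 1.33 over the whole list. The peaks covered 122 kb, or 3.35% of the block. Neighbouring summits were 6310 bp apart at the median, against 33992 bp on the rest of chromosome 11, 13824 bp on chromosome 19 and 30598 bp over the list. Of the 373 gaps between neighbouring summits, 262 (70.2%) were shorter than 10 kb, against 27.1% of gaps over the list. The longest gap, 121 kb from 67119232 to 67239960, lay inside KDM2A, between the peak at its start and a peak near a second listed start of the same gene. Most neighbouring peaks were thus within one background window of each other.

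**Figure D1:**
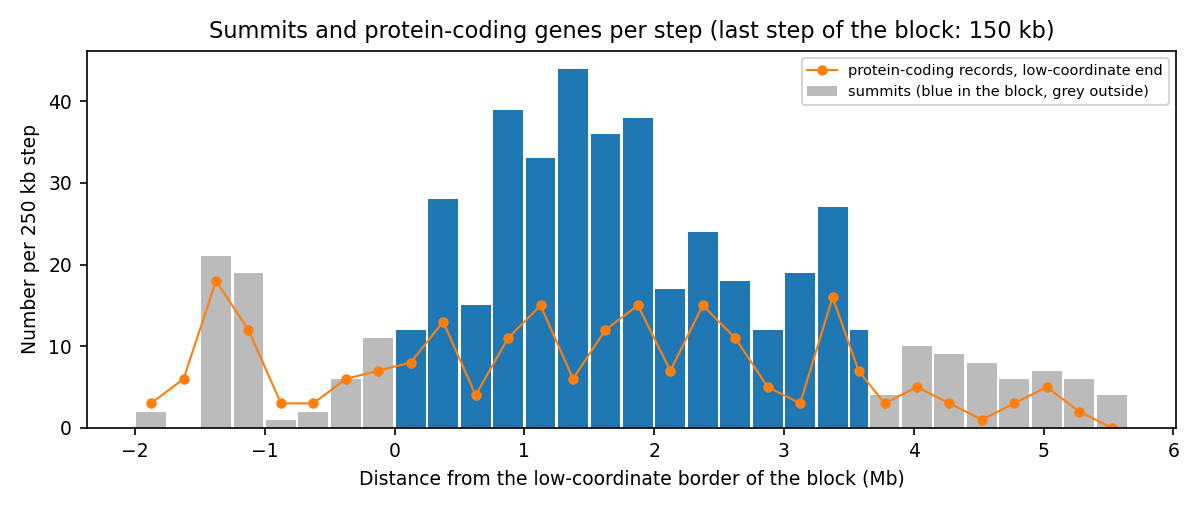
Summits and protein-coding genes per 250 kb along the block and the 2 Mb on each side, against the distance in Mb from the low-coordinate border. Bars give summits, blue in the block and grey outside, and the line gives genes. The last step inside is 150 kb wide. Counts inside the block run from 12 to 44 summits a step, with 44 in the step that holds NEAT1.

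3 quantities describe each peak. The local background is the number of fragments that the peak caller expected at the summit from the surroundings. The fragments are those found at the summit, and the fold is the quotient of the fragments and the background after 1 is added to each. Background and fragments were solved from the deposited fold and p-value of each peak. The sources used here do not say whether the background was counted in the IgG library or in the TCF4 library itself, so fragments of the peaks and of their neighbours may be part of it. Summits less than 10 kb apart share part of the window in which it is counted, by the caller's default setting, and are not independent.

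The peaks of the block stood on a high background and were made of many fragments, while their fold was somewhat low. The median background was 4.53 fragments (quartiles 2.88 and 7.67, range 0.697 to 17.9), against 0.969 on the rest of chromosome 11, 1.66 on chromosome 19 and 0.962 over the list. The median summit held 25 fragments (quartiles 17 and 39.8, range 6 to 163), against 10, 14 and 10. The median fold was 4.49 (quartiles 3.58 and 6.11, range 2.25 to 20.3), against 4.96, 5.1 and 5.13. A background of at least 10 was reached by 49 peaks (13.1%, Wilson interval 10.1% to 16.9%), where the whole list gave 1.01%. Since the block was chosen for its background, nothing is read from that share. These 49 were 18.1% of the 270 such peaks in the genome, and no peak elsewhere on chromosome 11 reached that level, where the highest value was 9.73. The lowest background the caller used anywhere, 0.475, was the value of 9.29% of the list and of 0 peaks in the block, which allows a share of up to 1.02% by the Wilson interval.

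Many peaks of the block were strong in fragments, while the share with a high fold was near that of the list. At least 20 fragments were found at 66.8% of its summits, against 15.6% over the list, and at most 10 fragments at 5.35%, against 55.5%. A fold of at least 10 was reached by 17 peaks (4.55%, Wilson interval 2.86% to 7.16%). The share was 4.42% on the rest of chromosome 11 and 5.76% over the list, inside that interval. A fold under 4 was found for 36.4%, against 13.4%. Peaks were wider, with a median of 250 bp (quartiles 158 and 419) against 175 bp over the list, and 17.6% against 6.82% were at least 500 bp wide. The median −log10 of the q-value was 6.43, and 61.5% of the peaks against 41.2% of the list had a value of at least 5.

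The peaks were then set beside others of the list with a like background. Between 4 and 5 fragments of background, the 53 peaks of the block had a median of 26 fragments and a fold of 4.79, and the 471 peaks elsewhere had 24 fragments and a fold of 4.51. Between 10 and 20, the 49 peaks of the block had 53 fragments and a fold of 3.78, and the 191 elsewhere had 45 fragments and a fold of 3.42. Between 2 and 3, the medians were 17 fragments in both sets, with a fold of 5.18 in the block and 5.23 elsewhere. At matched background the medians thus lay close together, and the fold of the block was the lower one in every class of background apart from those from 4 to 5 and from 10 to 20. Called peaks with few fragments were missing where the background was high. In the class from 4 to 5 no peak of the list had fewer than 14 fragments, while 18679 peaks of the list (70.1%) had fewer than that, and in the class from 10 to 20 the fewest was 25, a number that 90.1% of the list did not reach. Across the 374 peaks, fragments and background had a Spearman correlation of 0.75 (0.76 over the list), and fold and background one of −0.29 (−0.04 over the list). Both are descriptions, since neighbouring peaks share windows and the fold holds the background as its divisor.

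**Figure D2:**
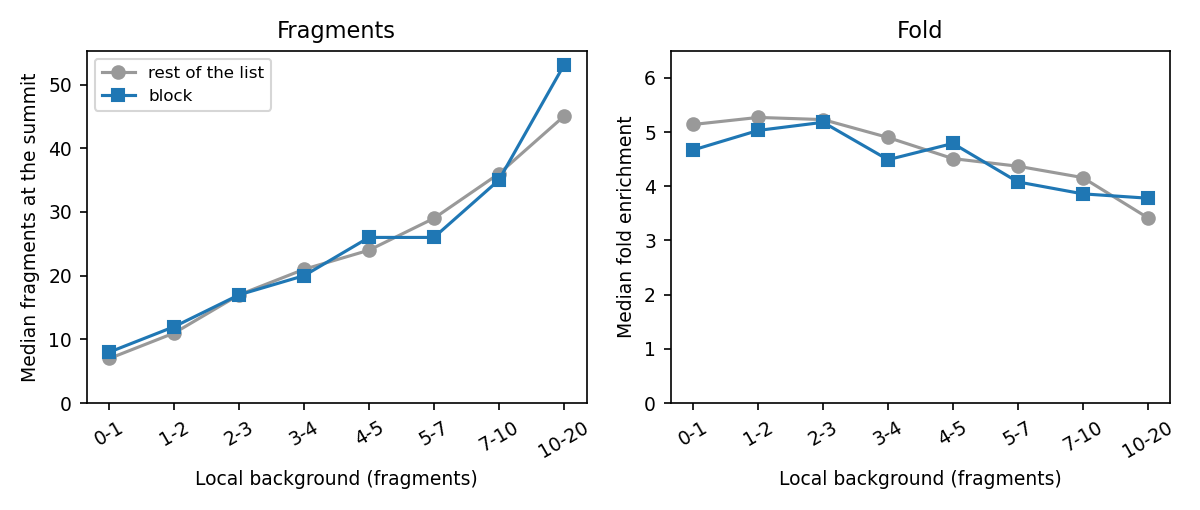
Median fragments at the summit and median fold in classes of local background, for peaks of the block and all other peaks of the list. In the class from 4 to 5 the medians are 26 and 24 fragments and folds of 4.79 and 4.51; the number of block peaks runs from 7 in the lowest class to 62.

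The background changed in steps along the block. In 250 kb steps from the low-coordinate border, its median was 3.72, 5.67, 2.5, 5.69, 3.09, 6.67, 8.8, 8.74, 3.41, 4.74, 2.31, 2.41, 3.51, 4.07 and, in a last step of 150 kb, 4.2. The high values thus formed a ridge in the middle, over steps that held 44, 36 and 38 summits, with NEAT1, MALAT1, RELA, CFL1 and FOSL1 among their genes. The 1 Mb interval from 65 to 66 Mb held 150 summits, the most of the 2522 intervals of 1 Mb with any summit, whose median was 7. Its median background of 7.09 ranked second among the 917 intervals with at least 10 summits, behind an interval of chromosome 5 with 12 summits and a median of 12.1. The intervals from 64, 66 and 67 Mb held 94, 71 and 64 summits, with median backgrounds of 4.93, 3.08 and 3.77.

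**Figure D3:**
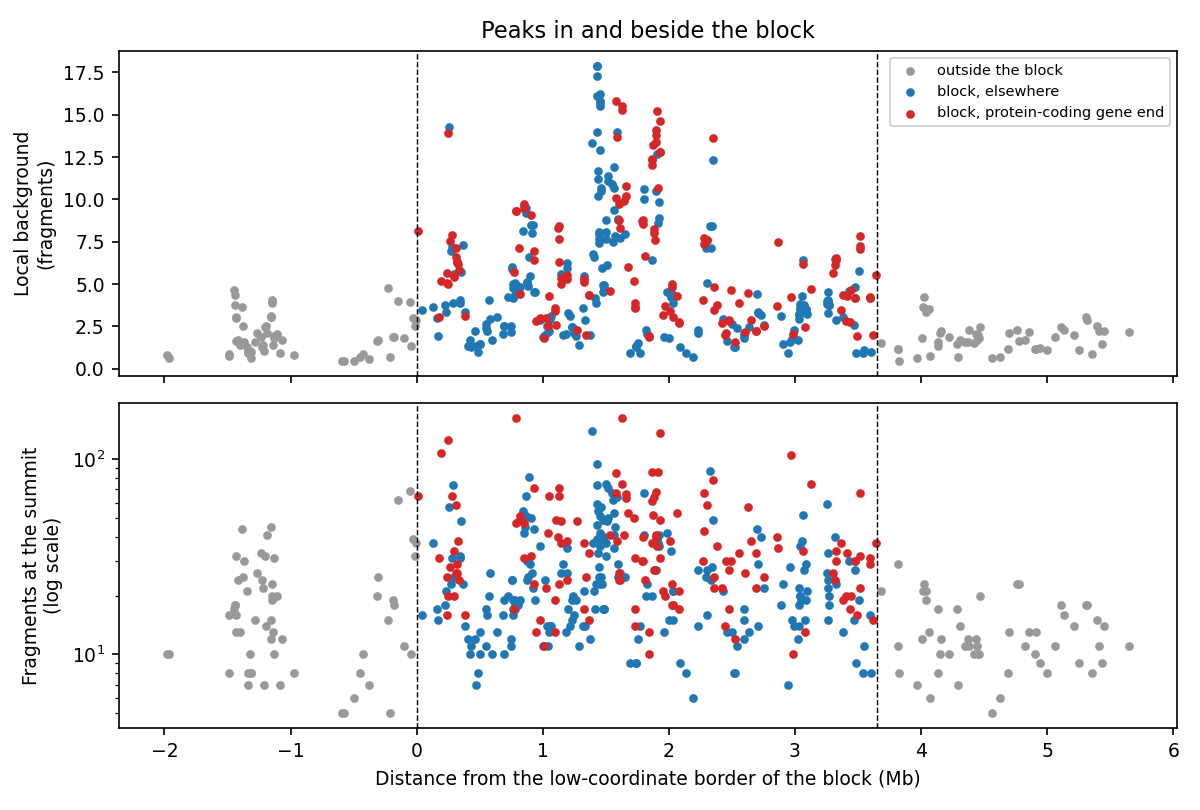
Local background and fragments at each summit against the distance in Mb from the low-coordinate border, with the borders dashed; red points are block summits within 1 kb of a protein-coding gene end, blue points are the other block summits and grey points lie outside. Background in the block reaches 17.9, whereas the Mb below it stays at or under 4.74 and the Mb above at or under 4.25.

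The limits were drawn on background, so a drop in background at both borders follows from that choice and is only described. The Mb below the block held 20 summits with a median background of 1.66 (0.475 to 4.74), and the lowest Mb of the block held 94 with 5.0 (1.01 to 14.3). The Mb above held 31 summits with 1.69 (0.475 to 4.25), and the highest Mb of the block held 76 with 3.57 (0.923 to 7.81). The medians of fold ran the other way at the low border, at 5.53 below it and 4.1 in the lowest Mb.

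The peaks closest to the limits are described next. Just below the block, summits stood at 63961820, at the start of COX8A, a subunit of cytochrome c oxidase, and at the start of OTUB1, a deubiquitinase, with folds of 10, 9.3 and 9.71 on backgrounds of 2.99, 2.55 and 2.91. Just inside, the peak at the finish of MACROD1, an ADP-ribose hydrolase, had a fold of 7.24 on a background of 8.11, and the next ones had folds of 3.81 and 8.15 on 3.46 and 3.66. The last peaks inside the upper limit had backgrounds of 1.01, of 1.97 at the start of NDUFV1, a subunit of respiratory complex I, and of 5.51 at the start of NUDT8, a hydrolase. The first ones beyond it had 1.52, in ALDH3B2, an aldehyde dehydrogenase, and 1.18 at both of the next summits. Across the lower limit the background thus went from 2.91 to 8.11, although the next peaks inside, at 3.46 and 3.66, were closer to those outside. Across the upper limit it went from 5.51 to 1.52, although the 2 peaks before the last one were close to those outside.

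High background was gathered in runs. 12 runs of at least 2 neighbouring summits with a background of at least 10 took in 45 of the 49 such summits. The longest, of 8 summits over 13.7 kb, led into NEAT1 (background 10.2 to 17.9), and 7 summits over 13.3 kb lay at its other end (10.5 to 16.2). Another 7, over 15.8 kb (10.5 to 15.2), lay at FIBP, CCDC85B and FOSL1, of which FOSL1 encodes the AP-1 subunit FRA1. The remaining runs lay at FKBP2 and PPP1R14B, at the far end of MALAT1, at ZNRD2, FAM89B and EHBP1L1, at MAP3K11 and PCNX3, at SIPA1 and RELA, at OVOL1, at CFL1 and MUS81, at C11orf68 and DRAP1, and at RIN1 and BRMS1. All but the 3 runs at NEAT1 and MALAT1 lay at or in protein-coding genes.

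Of the 5 lowest backgrounds of the block, 2 lay within 1 kb of an end of another gene record inside a longer protein-coding gene, and the others between genes; exons and introns cannot be given, since no exon annotation was used here. The lowest was 0.697, at 66183961 inside PACS1, a sorting adaptor of the trans-Golgi network, and by an end of LOC105369354, where 6 fragments gave a fold of 4.13. The others were 0.918 at 65681455, 0.923 at 66934102 inside PC and by MIR3163, 0.927 at 67530569 and 0.947 at 65763058, with 7 to 14 fragments. Low backgrounds thus also occurred within the block.

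The strongest peak by fold was that at the start of PC (66958224 to 66958789), with 105 fragments on a background of 4.22 and a fold of 20.3. STIP1, a co-chaperone that links HSP70 with HSP90, had a peak of 107 fragments on 5.16 with a fold of 17.5, 170 bp before one of its listed starts (64185673 to 64186280). SF1 had the most fragments of the block, 163 on a background of 9.29, with a fold of 15.9 (64778363 to 64779179). These 3 peaks combined a high count with a background that was no higher than 9.29.

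A fold of 15.3, from 74 fragments on 3.9, was found inside the overlapping records of GPR137 and BAD (64276697 to 64276989), of which BAD promotes cell death. POLA2 followed with a fold of 15.0 (48 fragments on 2.28), and VPS51, part of a complex that tethers endosomal vesicles, with 13.9 (49 on 2.6). The start of KDM2A had a fold of 13.3 (75 on 4.7), and a peak inside the gene, 54 bp before another listed start, had 12.4 (59 on 3.84). The peak at the start of SAC3D1, a protein linked to centrosomes, had 12.4 (65 on 4.32) and that at the start of SNX15, a sorting nexin, 12.3 (42 on 2.5). Of the 10 peaks with the highest fold, 8 lay within 1 kb of a protein-coding gene end and both of the others lay inside genes.

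By fragments, the order differed. After SF1 came PCNX3, with 162 fragments on a background of 15.5 and a fold of 9.86, and SLC25A45, a mitochondrial carrier, with 139 on 13.3 and a fold of 9.79, 222 bp after a listed start. The peak shared by DRAP1, a subunit of the NC2 corepressor, and C11orf68 held 136 on 12.8 (fold 9.89), and FKBP2, a prolyl isomerase of the endoplasmic reticulum, 126 on 13.9 (fold 8.52). A peak ahead of NEAT1 held 94 on 17.3 (fold 5.18), one 1653 bp from the low-coordinate end of CD248, a surface glycoprotein, 87 on 8.45 (fold 9.32), and CFL1, which severs actin filaments, 86 on 12.0 (fold 6.72). Only SF1, STIP1 and PC were among the 10 highest by fragments and by fold alike. The block held 12.1% of the 489 peaks of the list with at least 50 fragments. Of the 1534 with a fold of at least 10 it held 1.11% (0.693% to 1.77%), near its 1.4% of all peaks.

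Over the 149 protein-coding genes of the block, 121 (81.2%, Wilson interval 74.2% to 86.7%) had a summit no more than 1 kb from either end of the gene record, where 41.2% of the 20033 protein-coding genes of the genome did. The share was 34.2% on the rest of chromosome 11 and 43.5% on chromosome 19. Of the 112 genes of the block with a strand and listed starts, 84 (75.0%) had a summit within 500 bp of a listed start, against 41.5% in the genome. A fold of at least 10 at an end was found for 13 genes (8.72%), against 5.39%, and a summit inside the record for 103 (69.1%), against 38.8%. The strongest peak at a gene end had a median fold of 6.34 in the block and 6.38 over all genes with one, with 38 and 13 fragments. The genes of the block thus had a peak more often, and the peaks held more fragments, at a like fold. Since the block was chosen where peaks of high background crowd, these differences are only described. How far the density of summits alone would give them was not tested.

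Counted over summits, 146 of the 374 (39.0%) lay at a protein-coding gene end, 131 (35.0%) elsewhere inside a protein-coding gene, 29 (7.75%) at the end of another gene record, 17 (4.55%) inside one and 51 (13.6%) between genes. Over the list these shares were 32.2%, 31.6%, 7.23%, 6.45% and 22.5%. Peaks at protein-coding gene ends had a median fold of 5.01, 31 fragments and a width of 338 bp, and peaks elsewhere inside protein-coding genes 4.15, 21 and 204 bp. Peaks between genes had a fold of 4.67, 19 fragments and the lowest median background, 2.66. Position in the block thus went with width and fragments as well as with background.

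Starts and finishes of genes could be told apart for 112 genes. A summit lay within 1 kb of the start of 88 (78.6%) and of the finish of 34 (30.4%), with 29 having both. Over the genome these shares were 41.3% and 4.8%, on chromosome 19 40.8% and 10%, and on the rest of chromosome 11 36.7% and 3.92%. Starts outnumbered finishes 2.59 to 1 in the block, 4.07 on chromosome 19 and 8.62 in the genome. Of the 34 finishes with a summit, 24 (70.6%) had one that also lay within 1 kb of an end of another protein-coding gene, against 47.2% of the 760 in the genome. The finish of SNX15, for instance, had the peak of the SAC3D1 start, and the finish of BRMS1, a metastasis suppressor, that of the RIN1 start. The 10 finishes with no such neighbour were 8.93% of the genes with a strand, against 2.53% in the genome. Relative to a listed start, the 109 summits within 1 kb of one had a median position of 43 bp upstream (quartiles 149 bp upstream and 165 bp downstream), and 67 of them lay upstream. Over the list the median was 49 bp upstream.

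Among noncoding genes, 27 of 39 long noncoding RNA records (69.2%) had one as close to an end, against 14.3% in the genome, and 5 of 15 miRNA records (33.3%), against 9.15%. The protein-coding genes of the block with a summit neither at an end nor inside were FLRT1, TRPT1, KCNK4, SLC22A12, GAL3ST3, CD248, CTSF, GRK2, TBC1D10C, GPR152 and CABP2. The share of such genes over the genome was not computed. SLC22A12 is the urate transporter of the kidney, CABP2 a calcium sensor of the inner ear and retina, and KCNK4 a potassium channel of neurons. GRK2 is a widely expressed kinase that desensitises receptors. Nothing is read from this list, and a link with expression was not tested. Among protein-coding genes, most summits inside a record were found in SYT12, a synaptotagmin, with 9, KDM2A with 7, and EHD1, an endosomal ATPase, LOC124902693 and PACS1 with 6 each.

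Some genes of the block were grouped by role, in lists chosen by hand that are not complete. For each listed gene the strongest peak within 1 kb of an end was taken. Groups are given by counts beside the 81.2% of the whole block and were not tested, some genes stand in more than 1 group, and neighbouring genes can share a peak.

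**Figure D4:**
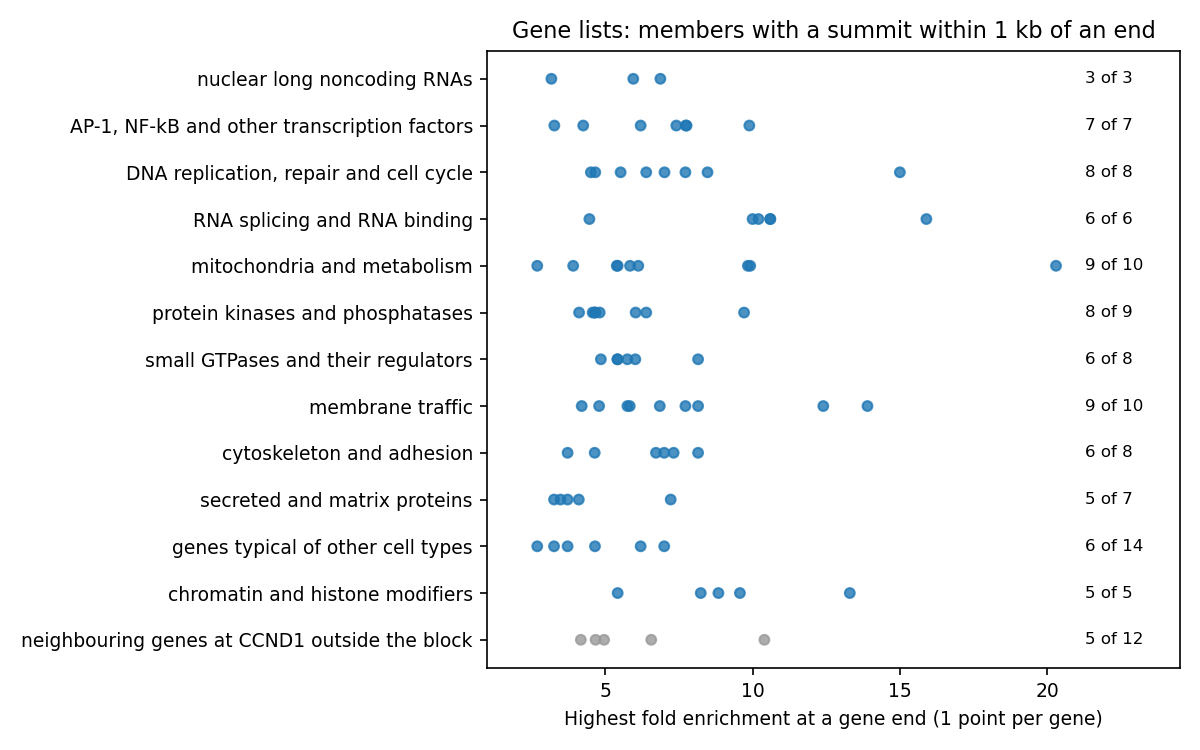
Fold of the strongest peak within 1 kb of an end for each gene of each group, 1 point per gene, with the number of genes that have one of the number listed; grey points are neighbours of CCND1 outside the block. Of the 6 splicing genes 5 sit at 10 or above, and the points of secreted proteins sit between 3.26 and 7.22.

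All 7 genes listed as transcription factors had a peak, with a median fold of 7.41 and 53 fragments. DRAP1 had a fold of 9.89, ESRRA, an orphan nuclear receptor of energy metabolism, 7.76 from 58 fragments on 6.61, and RELA, the p65 subunit of NF-kB, 7.73 from 53 on 5.99. FOSL1 had 7.41, from 86 fragments on 10.7, NPAS4, a factor of active neurons, 6.2 from 22 on 2.71, and BATF2, an AP-1 family member, 4.25 from 11 on 1.83. The seventh, OVOL1, a regulator of epithelial differentiation, had 3.27 from 24 on 6.65, near its high-coordinate end. FOSL1 thus had a peak of many fragments on a background that was high within the group, and BATF2 a small one on a low background.

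The groups of replication and cell cycle, splicing, and chromatin genes also had a peak at every gene. In replication and cell cycle (8 of 8, median fold 6.7), POLA2 had 15.0, POLD4, a small subunit of DNA polymerase delta, 8.47, CDK2AP2, a CDK2-associated protein, 7.72, and RNASEH2C, a subunit of ribonuclease H2, 7.01. PPP1CA, a catalytic subunit of protein phosphatase 1, had 6.39 and RAD9A, part of the 9-1-1 checkpoint clamp, 5.52. The peak of CDK2AP2 lay at its finish and was also that of the start of PITPNM1. Another peak, at the start of CDK2AP2, had a fold of 4.0. In splicing and RNA binding (6 of 6, median fold 10.4), SF1 had 15.9, RBM14, a paraspeckle protein, and RBM4B 10.6 each, SF3B2 10.2, RBM4 10 and SART1, a protein of the tri-snRNP, 4.46.

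Of the 6 splicing genes, 5 had a fold of at least 10, with backgrounds between 2.22 and 9.29. They are among the 13 of all 149 genes with such a fold. The group was chosen with earlier results of these data known, so nothing is read from its share. Among chromatin genes (5 of 5, median 8.84), KDM2A had 13.3, MEN1, the tumour suppressor menin, 9.57, BANF1, which bridges DNA at the nuclear envelope, 8.84, KAT5, the acetyltransferase TIP60, 8.24 and BRMS1 5.42, the last from the peak it shares with RIN1.

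In mitochondria and metabolism, 9 of 10 genes had a peak, with a median fold of 5.84. PC had 20.3, the ribosomal protein genes MRPL11 and MRPL49 of the mitochondrion 9.92 and 9.84, and GSTP1, a glutathione transferase, 6.12. NUDT8 had 5.84 and PRDX5, a peroxiredoxin, 5.42. SLC25A45 had none within 1 kb of its record's ends, although its peak of 139 fragments lay close to a listed start inside the record. Among membrane traffic genes 9 of 10 had a peak (median 6.85), with VPS51 at 13.9, SNX15 at 12.4, RAB1B, a GTPase of early secretion, at 8.15, PITPNM1, a phosphatidylinositol transfer protein, at 7.72, YIF1A, a Golgi transport protein, at 6.85 and PACS1 at 5.83. EHD1 had none at the ends of its record and 6 inside. 1 of these 6 (64878151 to 64879132) lay 45 bp from a listed start of EHD1, with 81 fragments on 6.6 and a fold of 10.8. For SLC25A45 and EHD1, the absence at the record's ends thus went with a strong peak at another listed start.

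Kinases and phosphatases had a peak at 8 of 9 genes (median 4.74), led by PPP2R5B, a regulatory subunit of protein phosphatase 2A, at 9.71, PPP1CA at 6.39 and MAP4K2 at 6.03. RPS6KB2, an S6 kinase, had 4.81, MAP3K11, a kinase upstream of JNK, 4.67 and SSH3, a cofilin phosphatase, 4.64, and GRK2 had none. The peak of MAP3K11 held 75 fragments on a background of 15.3, 1 of the highest of the block, and its fold was lower than that of genes with fewer fragments. Small GTPases and their regulators had one at 6 of 8 genes (median 5.58), with RAB1B at 8.15, CDC42EP2, an effector of CDC42, at 6.02, ARL2, a GTPase of tubulin folding, at 5.75, RIN1, a RAS effector, at 5.42, SIPA1, which inactivates RAP1, at 5.41 and RHOD, a small GTPase, at 4.85. The peak of SIPA1 lay 781 bp from its finish, and a peak at its start had a fold of 3.86. RASGRP2 and TBC1D10C, both known from blood cells, had none.

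Among cytoskeleton and adhesion genes 6 of 8 had a peak (median 6.86). KLC2, a kinesin light chain, had 8.15 from the peak of the RAB1B start. ACTN3, an actinin of skeletal muscle, had 7.0 from a peak that also lay at an end of ZDHHC24. CFL1 had 6.72, SSH3 4.64 and CORO1B, an actin-binding coronin, 3.72. FLRT1 and NRXN2, adhesion proteins of neurons, had none at an end. Among secreted and matrix proteins 5 of 7 had one, with the lowest median of the groups in the block, 3.72. EFEMP2, a fibulin of elastic fibres, had 7.22, CST6, a cysteine protease inhibitor, 4.1, CLCF1, a cytokine, 3.72, VEGFB, a growth factor of the VEGF family, 3.48 and CTSW, a cathepsin of lymphocytes, 3.26. CTSF, a lysosomal cathepsin, and LTBP3, which binds latent TGF-beta, had none at an end, although LTBP3 had 5 inside.

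Genes typical of other cell types had a peak at 6 of 14 (42.9%), the lowest share of the groups in the block and near the 41.2% of all protein-coding genes of the genome, with a median fold of 4.19. They were ACTN3 at 7.0, NPAS4 at 6.2, CATSPER1, a sperm calcium channel, at 4.65, PTPRCAP, a lymphocyte phosphatase partner, at 3.72, CTSW at 3.26 and PYGM, the muscle glycogen phosphorylase, at 2.69. The peak of PTPRCAP was also that of CORO1B, 902 bp from the end of both records. That of ACTN3 lay 263 bp from its record and 84 bp from an end of ZDHHC24, so it cannot be assigned to either gene. No summit lay at an end of CABP2, CABP4, NRXN2 or the 5 further genes of the group. Inside their records, SYT12 had 9 summits, NRXN2 5, RASGRP2 4, SLC22A11 2 and CABP4 1, while CABP2, SLC22A12 and TBC1D10C had 0. The group was chosen by hand and leaves out other such genes of the block, so its share holds for the 14 genes alone. Expression was not measured in these files, so whether genes with a peak were active was not tested.

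NEAT1 and MALAT1 gave the most crowded stretch of high background. From 10 kb before NEAT1 to 10 kb past MALAT1, over 104 kb (65412798 to 65516516), lay 32 summits with a median background of 10.4 (4.51 to 17.9), 39 fragments (17 to 94) and a fold of 3.36 (2.25 to 8.76). NEAT1, the RNA around which paraspeckles form, spans 65422798 to 65445540 and held 10 of them, with a median background of 10.7 (7.41 to 15.7), 36.5 fragments (23 to 54) and a fold of 2.95 (2.25 to 4.49). The 6.5 kb before it held 5, with a median background of 17.3. The highest background of the block, 17.9, was shared by the summits at 65422190, 608 bp from the low-coordinate end of NEAT1, and 65421325, where 59 and 74 fragments gave folds of 3.17 and 3.97. Next came 65418958 with 17.3, 65447059 with 16.2 and 65417959 with 16.1, all beside NEAT1. Of the 10 highest backgrounds of the block, 8 lay in or beside NEAT1, and the others were those of FAM89B, 15.8 with 67 fragments and a fold of 4.04, and PCNX3. Inside NEAT1 the background was lowest in the middle of the gene, at 7.41, and higher towards both ends.

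MALAT1 (65497738 to 65506516), the other abundant nuclear RNA, had another pattern. It held 0 summits inside and a peak at each end. The peak at the start, 224 bp upstream, had 48 fragments on 6.13 and a fold of 6.87. The peak past the far end (65506589 to 65508149) was the widest of the block at 1561 bp, with 71 fragments on 11.1 and a fold of 5.95. Its summit lay 191 bp from the high-coordinate end of TALAM1, the antisense RNA of MALAT1. Between NEAT1 and MALAT1 lay 15 summits with a median background of 6.13, among them the start of ENEMAL, with 49 fragments on 4.77 and a fold of 8.67, and an end of LINC02736, with 75 on 7.68 and 8.76, the highest fold of the stretch. In this 104 kb the highest folds therefore did not lie on the highest backgrounds.

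**Figure D5:**
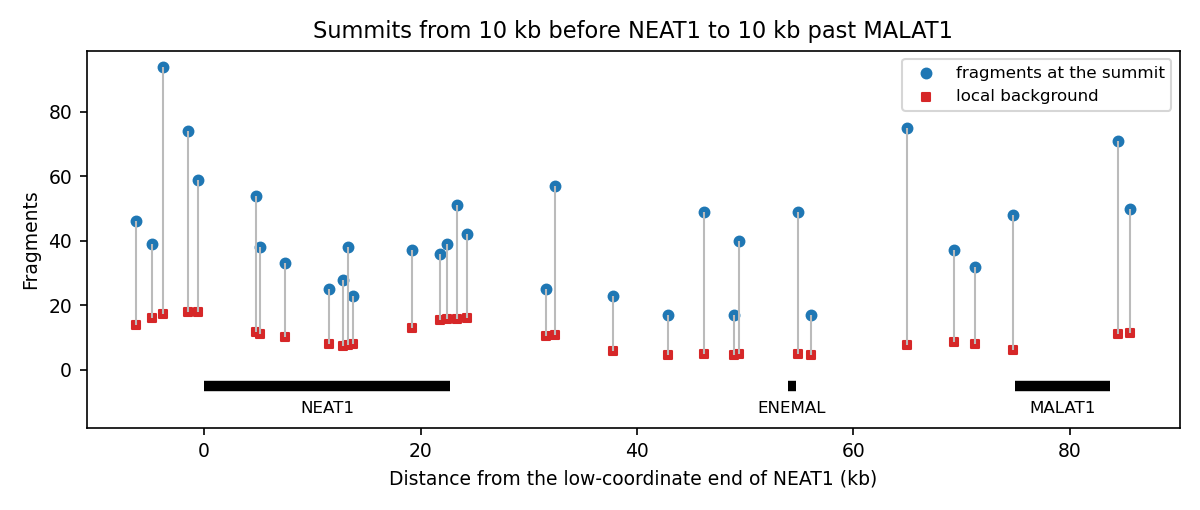
Fragments and local background at the 32 summits from 10 kb before NEAT1 to 10 kb past MALAT1, against the distance in kb from the low-coordinate end of NEAT1; bars mark NEAT1, ENEMAL and MALAT1. Background is highest just before NEAT1, at 17.9, and no summit lies inside MALAT1.

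The 15 miRNA records of the block were mostly without a peak. The RefSeq sequences of 4 of the mature miRNAs are given, with the seed (bases 2 to 8) in capitals: miR-192 and miR-194, which are known from epithelia of the gut and kidney, and both arms of miR-10392, whose hairpin lies under the peak at the EHD1 start. The seeds differ among the 4.
hsa-miR-192-5p: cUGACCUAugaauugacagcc
hsa-miR-194-5p: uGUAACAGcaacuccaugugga
hsa-miR-10392-5p: gCGCUUCGacgggcugggcugug
hsa-miR-10392-3p: cCGGCCCCgccucggcuccgcacc

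The nearest summit lay 3071 bp from the hairpin of MIR192 and 2937 bp from that of MIR194-2, outside the 1 kb window, and inside that of MIR10392. That hairpin lies inside EHD1, so its peak cannot be assigned to either gene. MIR612 lies inside NEAT1, by a summit of 36 fragments on a background of 15.5 with a fold of 2.25, the lowest of the 374.

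Promoter windows from RefSeq, 250 bases before to 50 after a listed start, were given for 137 genes of the block in 174 windows, and 84 of these (48.3%) held a summit, against 17.6% of 34943 windows of the genome. Matches were counted on either strand. The E-box CANNTG was found in 51.2% of the 84 windows with a summit (Wilson interval 40.7% to 61.6%), in 61.9% of the 42 windows of the block with no summit within 1 kb (46.8% to 75.0%) and in 68.7% of all windows. ATCAAAG was found in 1 of the 84 windows (1.19%), in 0 of the 42 (0 allows up to 8.38%) and in 2.63% of all windows. TGANTCA was found in 3.57%, 11.9% and 7.72%, and the GSTP1 window was 1 of those that held it. For none of these motifs was the share in block windows with a summit above that of all windows. Over all windows of the genome with a summit, the shares were 57.4% for CANNTG, 1.02% for ATCAAAG and 5.03% for TGANTCA. Each of these lies inside the interval of the block windows with a summit, so the low shares are not particular to the block.

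4 motifs were added after the data were seen, and each had a higher share in the block windows with a summit than in those without, by differing amounts. CCGGAA was found in 35.7% of the block windows with a summit (26.3% to 46.4%), in 16.7% of those without (8.32% to 30.6%) and in 17.2% of all windows. TGCGCA was found in 21.4% (14.0% to 31.3%), 4.76% (1.32% to 15.8%) and 8.19%. For CCGGAA and TGCGCA the intervals in the block overlap in part. ATTGG was found in 38.1%, 28.6% and 34.6%, where the intervals in the block overlap widely. GGGCGG, the GC box, was found in 75.0%, 71.4% and 44.9%, and within the block its intervals overlap widely too. Over all 6157 windows of the genome with a summit, the shares were 32.1% for CCGGAA, 17.1% for TGCGCA, 40.8% for ATTGG and 80.6% for GGGCGG, and each of them lies inside the block's interval. The median GC content was 69.0% in the block windows with a summit, 68.0% in those without and 58.7% over all windows, so within the block both sets were of like base composition. These windows share starts of the same gene in part and are not independent.

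Beyond the upper border, the neighbours of CCND1 did not share the high background. From CCND1 to CTTN, 27 summits had a median background of 1.67 (0.829 to 4.2), 12 fragments and a fold of 4.61. Of 12 genes listed there, 5 (41.7%, against 41.2% of all protein-coding genes) had a peak within 1 kb of an end, PPFIA1, a liprin, with a fold of 10.4 from 25 fragments on 1.5, LTO1 with 6.56, CTTN, the actin regulator cortactin, with 4.96, MYEOV with 4.67 and TPCN2, a lysosomal channel, with 4.17. Their backgrounds ran from 0.829 to 3.07. No summit lay within 1 kb of an end of ANO1, CCND1 or FADD, nor at FGF3, FGF4, FGF19 or SHANK2, although ANO1, a chloride channel, had 6 inside and SHANK2 9. The summit closest to CCND1, 2026 bp before its low-coordinate end, had 11 fragments on 2.17 and a fold of 3.78. The levels there were near those of the Mb just above the block.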

How the data were processed

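The data are the deposited narrowPeak list of 1 TCF4 library from CAL-27 spheres. Reads were aligned with Bowtie2 2.3.5.1, handled with SAMtools and turned into peaks with MACS2 2.2.7.1 on build hg38, per the submitters' processing notes; the parameters are not given in the sources used here. The deposited values are a ratio (fold enrichment at the summit), a −log10 p-value, a −log10 q-value and a score, which equals the −log10 q-value times 10 with decimals dropped in every peak. The total depth of the library is not given in the list, and the IgG library is not analysed here.

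From the authors' fold and p-value, the whole number of fragments and the local background were solved for each of the 26642 peaks, taking the p-value as a Poisson tail and the fold with 1 added to both sides; all were solved within 0.0001 on the −log10 scale, and the solver was tested on simulated data. Gene records, starts and sequences came from RefSeq (GRCh38.p14), matched by coordinates. A gene end is either end of its record, with a window of 1 kb. Where a record had no strand, its ends are given by coordinate. Intervals of shares are Wilson and those of densities exact Poisson, at 95%. No test was run, since there is 1 library and the block was chosen on its background. The block, the gene groups and the rules were chosen with earlier results of these data known. Named are the 10 peaks with the highest fold, the 10 with most fragments, the 10 highest and 5 lowest in background, up to 6 genes of each group by fold and up to 3 without a peak, in alphabetical order, the 5 genes with most summits inside, the 3 peaks on each side of each border, NEAT1 and MALAT1; other genes were named after their values were seen. 1 gene that these rules name is not reported here. Each summary was also computed with stricter thresholds, other windows, merged peaks and shifted or halved borders. The work was done in Python 3.11.15, with pandas 2.3.3 for tables, NumPy 2.4.6 and SciPy 1.17.1 for the solver, and figures drawn by Matplotlib 3.10.9.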

Additional observations from a re-analysis of the deposited data

How the results depend on the processing

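7 summary values of the block were recomputed under 59 alternatives, of which 29 stayed near the value given (within its 95% interval or, for summits per Mb, within 1.5 times it) and 30 did not. 1 of the 29 only restates the median background in another unit, 461 fragments per 10 kb, and could not move. With a −log10 q-value of at least 5 and at least 10, summits per Mb were 63.0 and 38.1, the share of summits at protein-coding gene ends 46.1% and 54.0%, the share of genes with one 69.8% and 56.4%, the median fold 5.67 and 6.99, the width 342 and 475 bp and the fragments 34.5 and 45.0, with a background of 5.36 at the stricter one. With at least 20 fragments, the shares were 48.0% of summits and 70.5% of genes, the fold 5.07, the width 316 bp, the fragments 34.0 and the background 6.32. In the low-coordinate and high-coordinate parts of equal length, 33.3% and 46.8% of summits lay at gene ends, with folds of 4.2 and 4.79 and backgrounds of 5.34 and 3.81. With a window of 500 bp or 2 kb, the shares were 27.5% and 48.1% of summits and 69.1% and 88.6% of genes, and with starts alone 29.1% of summits. The changes with window and threshold follow from their construction, as more or fewer peaks count; for the parts of the block the cause was not tested. No paired analysis was possible because each antibody has 1 library and the IgG library is not analysed here. 1 library gives no estimate of the spread between cultures, and peaks of few fragments cannot be called where the background is high.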
